A study of Mus musculus with 4 samples.

Results

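ATF4 binding was examined at 8 mouse genes of amino acid synthesis, transamination and mitochondrial phosphoenolpyruvate carboxykinase, out of 21887 coding genes placed on chromosomes. Asns makes asparagine, Pycr1 and Aldh18a1 make proline, Gpt2, Got1, Got2 and Bcat1 are transaminases, and Pck2 is the mitochondrial carboxykinase. The genes were taken as named, and a peak was linked to a gene when its listed summit lay inside the gene or within 50 kb of it. By that rule 3 of the 93 peaks of the control list and 7 of the 952 peaks of the Opa1 knock-down list belonged to these genes.

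The peaks came from chromatin immunoprecipitation and sequencing (ChIP-seq) with an antibody to ATF4 in primary cortical neurons. The neurons were from CD1 mouse embryos at day 14.5 to 15 and were grown for 11 days in neurobasal medium with the supplements B27 and N2, antibiotics and 0.6 mM L-glutamine. Cytosine arabinoside, which blocks dividing cells, was given at 2 µM, and lentivirus was added on day 6 in all groups. The libraries labelled shControl (genotype WT) and shOpa1 (genotype Opa1 knock-down) gave 1 ATF4 peak list each. The IgG and input libraries, both labelled shControl, were not analysed here. With 1 library per condition no difference between conditions could be tested, and the deposited peaks do not measure Opa1 itself, so the knock-down was not checked. The labels name no further treatment and do not say how many embryos were pooled or how the hairpin was chosen.

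ATF4 is a basic leucine zipper transcription factor whose translation increases when eIF2 alpha is phosphorylated. It binds DNA as a dimer, often with a C/EBP partner, at a composite element made of a C/EBP and an ATF portion, and many of its known target genes supply amino acids. Asparagine synthetase is among the best studied of these targets. Transaminases move amino groups between amino acids and keto acids, and proline is made from glutamate through Aldh18a1 and then pyrroline-5-carboxylate reductases. Pck2 turns mitochondrial oxaloacetate into phosphoenolpyruvate.

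Asns, Pycr1, Got1 and Pck2 carried the core of that composite element, TGATGNAA, just before their annotated start, and a knock-down peak covered it in each. Their last 150 bases before the start are shown for that reason, with Aldh18a1 beside them as a gene whose peak was centred on the start and whose window held no such match. The Aldh18a1 peak reached 326 bp before and 347 bp after the start, but only 250 before to 50 after were searched. Sequences are from RefSeq (GRCm38.p6, whose chromosome coordinates are those of mm10), 5′ to 3′ on the strand of the gene. Capitals mark TGATGNAA or its reverse complement. The regions are chr6:7693210-7693359 (minus strand) for Asns, chr11:120643749-120643898 (minus) for Pycr1, chr19:43524606-43524755 (minus) for Got1, chr14:55540116-55540265 (plus) for Pck2 and chr19:40588464-40588613 (minus) for Aldh18a1.
Asns: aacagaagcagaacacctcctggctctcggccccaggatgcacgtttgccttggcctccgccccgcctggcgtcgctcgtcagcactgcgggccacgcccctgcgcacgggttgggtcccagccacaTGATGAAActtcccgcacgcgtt
Pycr1: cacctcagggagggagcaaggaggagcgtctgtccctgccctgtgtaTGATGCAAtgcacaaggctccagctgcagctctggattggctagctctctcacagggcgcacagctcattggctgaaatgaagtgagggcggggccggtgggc
Got1: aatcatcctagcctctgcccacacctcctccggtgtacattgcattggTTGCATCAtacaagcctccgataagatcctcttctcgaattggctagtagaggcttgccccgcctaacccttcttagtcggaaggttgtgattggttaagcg
Pck2: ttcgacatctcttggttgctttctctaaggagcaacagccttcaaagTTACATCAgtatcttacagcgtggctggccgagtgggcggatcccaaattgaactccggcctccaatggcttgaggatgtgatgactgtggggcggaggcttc
Aldh18a1: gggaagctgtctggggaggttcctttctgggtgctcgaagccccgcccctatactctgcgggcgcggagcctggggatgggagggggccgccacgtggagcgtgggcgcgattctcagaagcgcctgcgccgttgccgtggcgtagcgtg

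The first question was which of the 8 genes ATF4 occupied in each condition. In the knock-down list 7 of the 8 had a linked peak, every gene but Got2, whereas 6.23% of all coding genes met the same rule. In the control list Asns, Gpt2 and Pck2 had one, 3 of 8, against 0.927% of all coding genes. The knock-down peaks of these 3 genes overlapped the 3 control peaks, and Got1, Pycr1, Bcat1 and Aldh18a1 were in the knock-down list alone. Over the whole list, 80 of the 952 knock-down peaks overlapped exactly 1 control peak, so a peak in that list alone was the usual case. Each occupied gene had exactly 1 summit in the window in a list. The 8 genes were chosen with earlier results of these data known, so their shares describe the set and test nothing. The sources used here give neither depth nor calling threshold, so absence from the control list does not show that a gene was unbound.

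Fold below is the authors' enrichment of a peak over the caller's background, and tags are the number of sequenced tags they list for it, not scaled for depth. Intervals on tags are exact 95% Poisson intervals and cover counting error only. All control peaks had a median fold of 7.53 and all knock-down peaks one of 8.13. The member sites had medians of 8.15 (control, n = 3) and 11.95 (knock-down, n = 7). A fold of at least 10 was reached by 4 of the 7 knock-down sites, where 29.9% of all knock-down peaks reached it, and by 1 of the 3 control sites, where 21.5% of all control peaks did. Knock-down peaks with a summit within 1 kb of an end of a coding gene, a closer yardstick, had a median fold of 9.14 (n = 107), and 40.2% of them reached a fold of 10. Of the 22 such control peaks 31.8% did, so the control share of 1 in 3 was close to that of other peaks near gene ends.

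Asns, which turns aspartate into asparagine with glutamine as nitrogen donor, had the highest fold of the set in both lists. The control peak (chr6:7692925-7693439) had a fold of 10.04 and 30 tags (20.2 to 42.8) and stood at rank 22 of 93 in the deposited order. The knock-down peak (chr6:7692792-7693598) had a fold of 17.69 and 69 tags (53.7 to 87.3), at rank 48 of 952. The fold was thus 1.76 times as high in the knock-down list, and the tag intervals of the lists, unscaled for depth, did not overlap. Only 47 of the 952 knock-down peaks had a higher fold.

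The proline genes had peaks in the knock-down list alone, like most peaks of that list. Pycr1, a mitochondrial pyrroline-5-carboxylate reductase that does the last step of proline synthesis, had a peak at chr11:120643478-120644055 with a fold of 11.95 and 40 tags (28.6 to 54.5), at rank 173. Aldh18a1, which makes the precursor of pyrroline-5-carboxylate from glutamate, had a peak at chr19:40588116-40588789 with the same 40 tags but a fold of 7.17, at rank 216. The Aldh18a1 fold was the lowest of the 7 knock-down sites, and 583 of the 952 knock-down peaks had a higher one. The Aldh18a1 peak was also wider, at 674 bp against 578 bp, or 59.3 tags per kb against 69.2 for Pycr1.

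Among the transaminases, Gpt2 had a peak in both lists. Gpt2 is the mitochondrial alanine transaminase. Its control peak (chr8:85492088-85492475) had a fold of 6.9, below the median of that list, and 20 tags (12.2 to 30.9). Its knock-down peak (chr8:85491864-85492601) had a fold of 15.3 and 57 tags (43.2 to 73.9), the second highest of the set. The ratio of folds, 2.22, was the largest of the 3 genes found in both lists. The tag intervals, unscaled for depth, did not overlap. Over all 80 knock-down peaks with a control partner the median ratio was 2.26, so Gpt2 lay near that median and Asns below it.

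Got1, the cytosolic aspartate transaminase, had a knock-down peak at chr19:43524357-43525048, with a fold of 13.86 and 48 tags (35.4 to 63.6) at rank 133. Bcat1, the cytosolic branched-chain transaminase, had one at chr6:145075807-145076270 with a fold of 9.56 and 29 tags (19.4 to 41.6) at rank 323. Bcat1 had fewer tags than every other knock-down site of the set but Pck2, and 292 of the 952 knock-down peaks had a higher fold. Got2, the mitochondrial aspartate transaminase, had no linked peak in either list. Its nearest knock-down summit was 115.9 kb from the gene (fold 11.95, 53 tags), nearest to the coding gene Cnot1, and its nearest control summit was 1478 kb away.

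By fold, Pck2 went the other way from Asns and Gpt2. Its control peak (chr14:55540051-55540344) had a fold of 8.15 and 16 tags (9.15 to 26.0), at rank 71 of 93. The knock-down peak (chr14:55539909-55540458) had a fold of 7.65 and 24 tags (15.4 to 35.7), at rank 753 of 952, the lowest rank of the 7 sites. The ratio of folds was 0.939, and 5 of the 80 partnered knock-down peaks had a ratio below 1. By tags the order was the opposite, with 1.5 times as many in the knock-down list (95% interval 0.764 to 3.02, unscaled for depth), and the tag intervals overlapped. Per length the Pck2 peak held 54.4 tags per kb for control and 43.6 for knock-down. The direction at Pck2 therefore depended on the quantity read, and counting error alone spans no difference in tags.

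**Figure D1:**
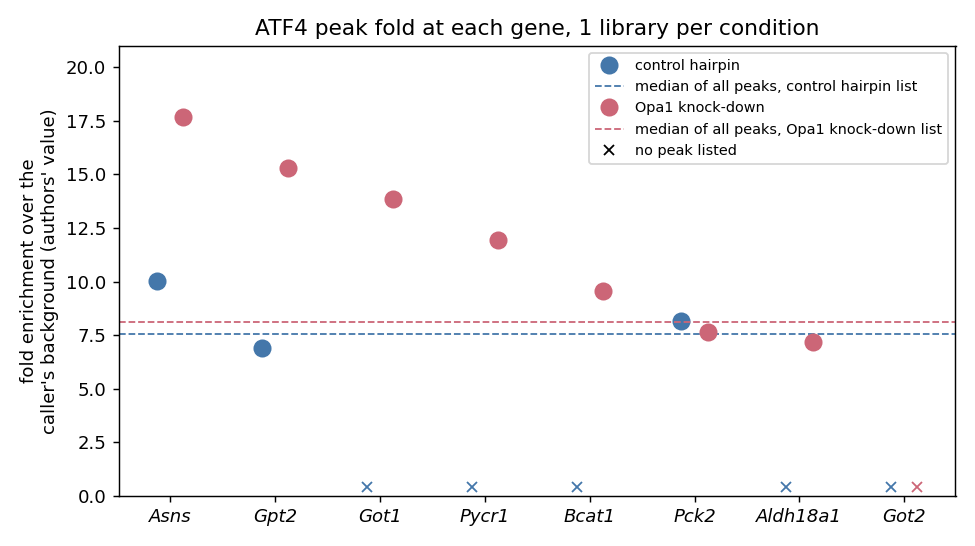
Fold enrichment over the caller's background (y axis, the authors' value) at the 8 genes (x axis) in the control list (blue) and the Opa1 knock-down list (red), 1 library each; crosses mark genes with no listed peak and dashed lines the median of all peaks in each list. Asns and Gpt2 are higher in the knock-down list, Pck2 has 8.15 (control) and 7.65 (knock-down), and Got2 has no peak in either.

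**Figure D2:**
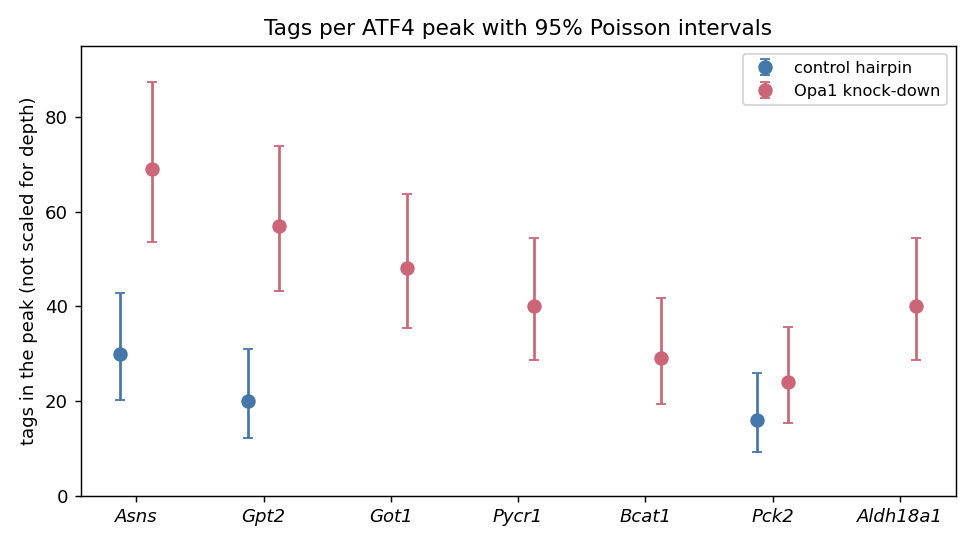
Tags counted in each peak (y axis, not scaled for depth) with exact 95% Poisson intervals, for the 7 genes with a peak, control list in blue and knock-down list in red. The intervals are apart for Asns and Gpt2 and overlap for Pck2, at 16 and 24 tags.

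The peaks of the 3 genes found in both lists were wider in the knock-down list. Width went from 515 to 807 bp at Asns, from 388 to 738 bp at Gpt2 and from 294 to 550 bp at Pck2. Over the whole lists the median width was 444 bp and 589.5 bp. Those medians cover different peaks in each list, and widths were not compared over the 80 knock-down peaks with a control partner. Tags are listed for the whole interval, so they were also taken per kb. They were 58.3 and 85.5 at Asns and 51.5 and 77.2 at Gpt2, which leaves both higher in the knock-down list, by 1.47 and 1.5 times. At Pck2 they were 54.4 and 43.6, hence lower in the knock-down list. None of these values is scaled for depth.

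The next question was where in each gene the peaks lay. All 7 knock-down peaks were at the annotated start of their gene. In each of these 7 peaks, and in the control peaks of Asns and Pck2, the interval reached across the start. The control peak of Gpt2 ended before it. A summit within 1 kb of the start was thus found for 7 of 8 genes in the knock-down list, against 0.577% of the 17492 coding genes with a RefSeq start used here, and for 3 of 8 in the control list, against 0.149%. The genes counted were those of the 50 kb rule, since each had a single summit in its window.

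In all 10 member peaks the summit was within 1 bp of the middle of the interval, and so it was in all 84 control and 886 knock-down peaks whose listed length matches the interval. It therefore marks the centre of a called region and not a measured point of highest signal. Distances to it are distances to a peak's middle.

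Measured that way, the middle of the knock-down peak lay 13 bp after the start at Asns, 10 bp after it at Aldh18a1 and 118 bp after it at Bcat1, hence inside those genes. It lay 19 bp before the start at Pycr1, 82 bp at Pck2, 98 bp at Got1 and 343 bp at Gpt2, outside the gene bodies. Gpt2 was the one farthest upstream in both lists, with 294 bp in the control list. The control peaks of Asns and Pck2 were centred 26 bp after and 68 bp before the start. Between lists the middle shifted by 13 bp at Asns, 14 bp at Pck2 and 49 bp at Gpt2, all small beside the peak widths. RefSeq exons were not used here, so the exon or intron under the downstream part of a peak is not given.

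**Figure D3:**
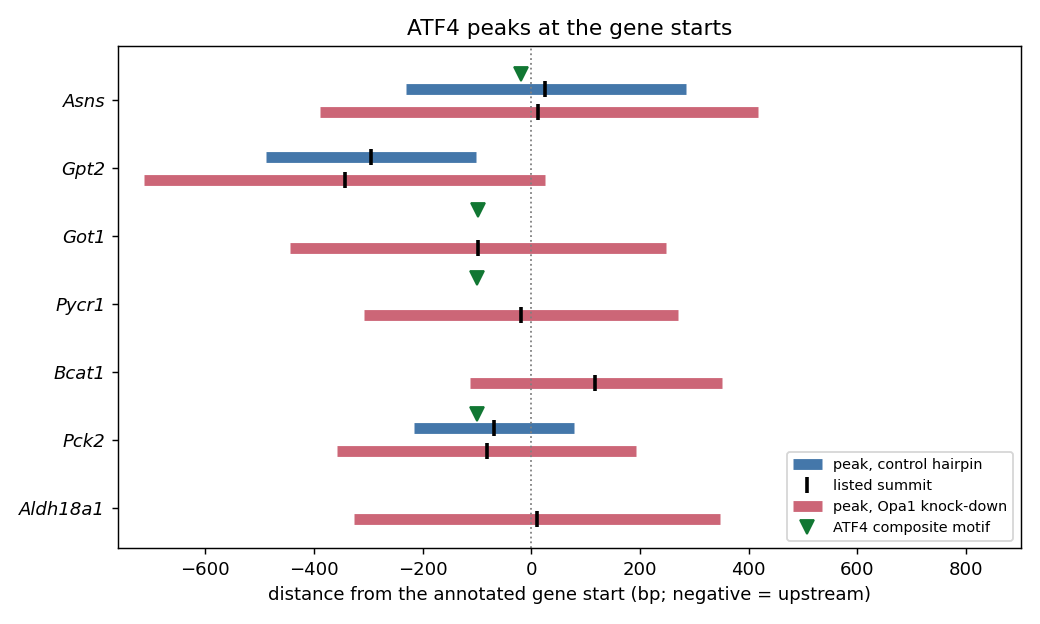
Extent of each peak relative to the annotated gene start (x axis, bp, negative upstream), with control peaks in blue, knock-down peaks in red, the listed summit as a black tick and matches to TGATGNAA as green triangles. The triangles of Got1, Pycr1 and Pck2 stand about 100 bp upstream and that of Asns about 20 bp upstream; only 250 bp before to 50 bp after the start were searched.

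Most peaks of the lists lay elsewhere. The median distance from a summit to the nearest end of any coding gene, start or end of the gene body, was 30.5 kb for knock-down peaks and 12.0 kb for control peaks. Within 500 bp of such an end were 73 of 952 knock-down summits (7.67%) and 18 of 93 control summits (19.4%), and among them all 7 and all 3 member sites. The next knock-down summit beyond the linked one was 388 kb from Pck2, 681 kb from Gpt2 and 774 kb from Asns. It was over 1 Mb away from Pycr1 (1447 kb), Aldh18a1 (2393 kb), Got1 (2911 kb) and Bcat1 (3106 kb). No summit of these genes was therefore near the 50 kb limit on either side.

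**Figure D4:**
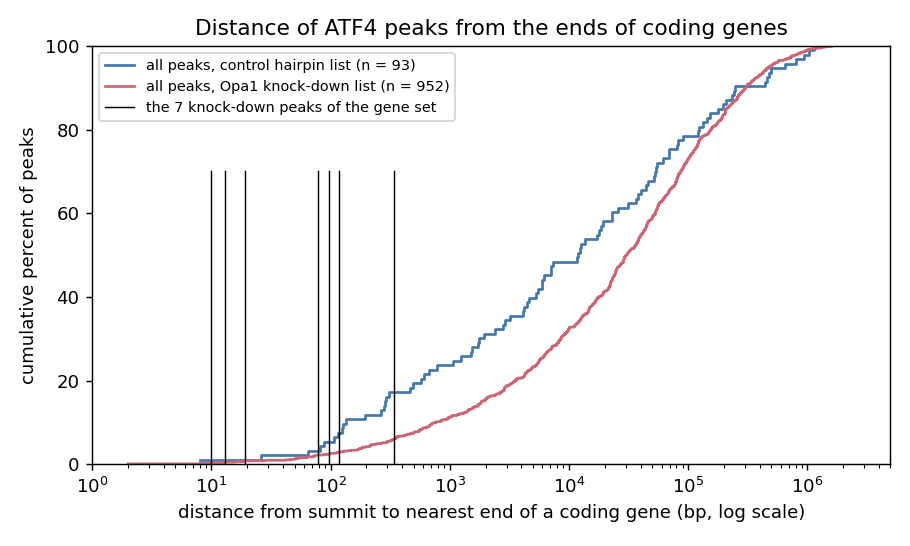
Cumulative percent of peaks (y axis) by distance from the summit to the nearest end of a coding gene (x axis, log scale), for all control peaks (blue) and all knock-down peaks (red); vertical lines mark the 7 knock-down peaks of the gene set. Those 7 lie between 10 and 343 bp, where the knock-down curve is below 10%.

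Neighbouring genes were looked at because a summit can lie near several genes. No other coding gene lay within 2 kb of a member summit. The closest was Myadml2, 2264 bp from the Pycr1 summit. Within 50 kb of the summit lay 9 other coding genes at Pycr1, 9 at Pck2 and 2 at Aldh18a1. There was 1 each at Gpt2, Got1 and Bcat1, and 0 at Asns. Gm27042, a long non-coding RNA gene, lay 79 bp from the Aldh18a1 summit, and its near end was inside that peak. The Aldh18a1 peak therefore covered an end of both genes. For all 10 peaks the member was the nearest coding gene.

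The last question about the sites was whether their sequence held the composite element. RefSeq windows of 250 bases before to 50 after the start were searched for TGATGNAA on both strands, and all 8 genes had at least 1 window. The 8 genes had 9 windows, since Bcat1 had 2, and the shares given here are per window and not per gene. A match was found for Asns, Pycr1, Got1 and Pck2, 4 of 8 genes, against 3.60% of the 21263 windows of coding genes. The stricter TGATGCAA, which is contained in TGATGNAA, was found for Pycr1 and Got1, 2 of 8, against 0.865% of windows. A match is a description of the sequence and not a shown binding site.

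The letters and positions of the matches were as follows. Asns held TGATGAAA on the gene's strand, 23 to 16 bases before the start. Pycr1 held TGATGCAA on the gene's strand, 103 to 96 bases before it. Got1 held the same TGATGCAA on the opposite strand, 102 to 95 bases before it, and Pck2 held TGATGTAA on the opposite strand, 103 to 96 bases before it. Pycr1, Got1 and Pck2 thus had the element within 1 base of the same distance, on either strand, as the aligned sequences above show. The middle of the knock-down peak fell inside the match at Got1, 14 bp from it at Pck2, 29 bp at Asns and 77 bp at Pycr1. All 4 matches lay inside the knock-down peak, and those of Asns and Pck2 also inside the control peak.

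Gpt2, Aldh18a1, Bcat1 and Got2 held no TGATGNAA in their windows. Of these, the windows of Gpt2 and Bcat1 did not contain the middle of their peaks, which lay farther upstream and farther downstream. Aldh18a1's window did. Over all coding genes, 39 windows held a knock-down summit and 24 of them a TGATGNAA match (61.5%). The member genes supplied 5 of these 39 windows and 4 of the 24 matches, and the other 34 windows had 20. The stricter TGATGCAA was in 17 of the 39 windows (43.6%). The knock-down peaks and the element thus coincided at many starts and not at these genes alone. The cyclic AMP response element TGACGTCA, searched after the other results were seen, was in none of the 39 windows and in none of the 8 genes, against 2.23% of all windows. None in so few windows is near that background share and is not a result about them.

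The remaining genes of these pathways were taken from a list of 26, compiled from general knowledge. In the knock-down list 3 of the 26 met the 50 kb rule, beside 6.23% of all coding genes, and in the control list 0 did, beside 0.927%. Psat1, the phosphoserine transaminase of serine synthesis, was the 1 gene with a summit at its start, 141 bp upstream, with a fold of 17.21 and 69 tags. Those values are close to those of Asns, at 17.69 and 69. The other 2 were linked only through a neighbour. The peak counted for Got1l1 (fold 17.21) lay 37382 bp away and inside Eif4ebp1, a repressor of translation initiation. The peak counted for Bcat2, the mitochondrial branched-chain transaminase, lay 26755 bp away and 975 bp from Fgf21, which encodes a secreted hormone.

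Several of the 8 genes have a close relative in another compartment or tissue, and these were set side by side after the values had been seen. Gpt2 had a knock-down summit 343 bp away, whereas the nearest to Gpt, the cytosolic alanine transaminase, was 319 kb away. Got1 had one 98 bp away and Got2 115.9 kb away. Pck2 had one 79 bp from the gene, and Pck1, the cytosolic carboxykinase, 2477 kb. Bcat1 had one inside the gene, and Bcat2 only the one beside Fgf21. Pycr1 had one 19 bp away, and its relative Pycrl 1097 kb. In each of these pairs the start of 1 relative had a peak and that of the other had none within 1 kb. Since 0.577% of coding genes had one there, its lack at the relatives is what most genes show. The occupied relative was mitochondrial for alanine transaminase, carboxykinase and pyrroline-5-carboxylate reductase (Pycr1). It was cytosolic for aspartate and branched-chain transaminase.

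The branched-chain transaminase Bcat2 met the 50 kb rule, through the peak beside Fgf21. Several genes that break these amino acids down were among those with no knock-down summit within 50 kb. For asparagine these were Asrgl1 and Aspg, for proline Prodh, Prodh2 and Aldh4a1, and for branched-chain keto acids Bckdha and Bckdhb. Among the glutamate genes Glud1, Gls2 and Glul had none either. With 6.23% of all coding genes meeting the rule, none in so few genes is near the background and is not a result about them. For the 23 listed genes beyond the window, the nearest knock-down summit was 112 to 6032 kb away, with a median of 571 kb. These are descriptions of 1 list, and none of the differences between genes was tested.

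**Figure D5:**
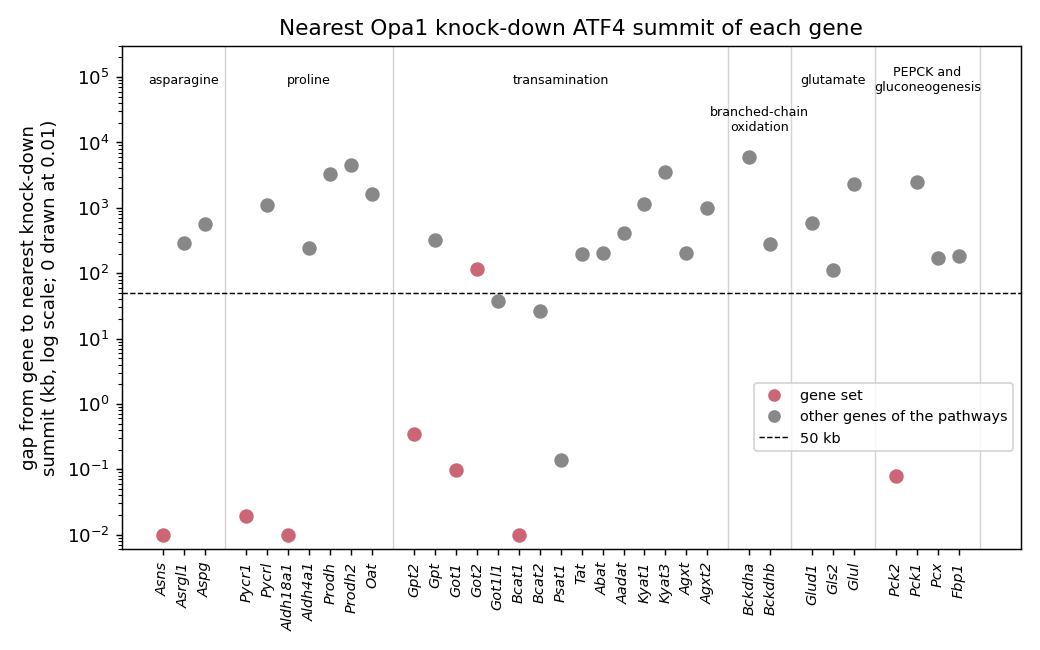
Gap from each gene to its nearest Opa1 knock-down summit (y axis, kb, log scale, 0 drawn at 0.01) for the 8 genes of the set (red) and 26 other genes of the pathways (grey), grouped by pathway. Of the red points 7 lie at or below 0.343 kb, Got2 lies at 115.9 kb, and Psat1 is the 1 grey point below 1 kb.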

How the data were processed

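ATF4 ChIP-seq was done on neurons whose chromatin was fixed for 30 minutes and sheared to fragments near 150 bp, per the labels' protocols. The build was mm10, and MACS2 and deepTools were named, per the submitters' processing notes. The sources used here do not name an aligner, a duplicate filter, a control library, a threshold or a depth. The deposited lists pack a rank, p-value score, fold (a ratio), length, summit and tag count into each peak's name, all the authors' values. Tags in peaks summed to 2424 (control) and 33318 (knock-down). The score mixes 2 forms, and all member peaks had the form in which length matches the interval (84 of 93 and 886 of 952 peaks).

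Each list was tied to a library by the hairpin in its name. Gene positions, starts and promoter sequences came from RefSeq tables (GRCm38.p6). All 8 members and all 26 other genes matched a symbol. A further 2 genes of that list are not reported here, and every count over the list leaves them out. Starts were used for 17492 coding genes. No test was run, since each condition has 1 library; counts stand beside the share of all coding genes, peaks or windows under the same rule. Overlap meant at least 1 bp. The members, lists and rules were chosen with earlier results of these data known. The text names all members, and other listed genes by the rule of a summit within 50 kb; the paralogs and breakdown genes were picked from that list after their values were seen. The linking was tested on simulated peaks: 94 of 94 planted within the window among 21887 genes were recovered, with 0 wrong links. Alternatives covered the window, a stricter score or fold, the nearest gene, the overlap rule, the motif, and tags in place of fold. Tables were handled with pandas 2.3.3 and numpy 2.4.6 in Python 3.11.15, intervals with scipy 1.17.1, and plots with matplotlib 3.10.9.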

Additional observations from a re-analysis of the deposited data

How the results depend on the processing

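With a window of 5 or 100 kb, with the nearest coding gene alone, or with the first score form alone (added after seeing the data), the numbers of occupied genes of the set stayed at 3 and 7. In the higher-scoring part of each list Asns was the 1 control gene left, and 6 of 7 knock-down genes were left. With a fold of at least 10, 1 control and 4 knock-down genes were left. The linked summits numbered the same, and those shared by both lists fell from 3 to 1 under either stricter setting, where fewer peaks entered. Among the other pathway genes 1 in place of 3 had a knock-down summit with the 5 kb window or with the nearest gene alone. Members with the motif were 2 with TGATGCAA, and 0 with TGACGTCA and 4 with TGANGNAA, both added after seeing the data. The looser TGANGNAA was in 15.3% of all windows of coding genes, against 3.60% for TGATGNAA. Among the 39 windows with a knock-down summit the shares were 84.6% and 61.5%. At Pck2 the knock-down to control ratio turned from 0.939 by fold to 1.5 by tags; the cause was not tested. Of 50 alternative values, 37 counts or ratios had the same direction and, for counts, lay within 1.5 times the reported one. They include 6 in place of 7 knock-down genes, 2 in place of 3 other pathway genes under either stricter setting, and tag ratios of 2.3 at Asns and 2.85 at Gpt2 whose counting intervals held the fold ratios. Both stricter settings also leave out the Pck2 control and knock-down peaks. Motifs were not searched in the peaks outside the promoter windows. No paired analysis was possible because there is 1 library in either group. Depth is unknown, and the fold comes from separate calls, so no ratio between lists is a measured change in binding.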

Other observations

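The 5-letter core TGATG was also looked for alone on both strands, after the other results had been seen. Beyond the matches described above, Asns held a further TGATG 220 to 216 bases before its start, Got1 197 to 193 bases and Pck2 24 to 20 bases before theirs. Gpt2, with no longer match, held 1 at 96 to 92 bases before its start. It lay inside the knock-down peak but outside the control peak, 247 and 198 bp from their middles. Aldh18a1 held 1 at 186 to 182 bases, inside its peak and 192 bp from the middle. Bcat1 held 1 at 85 to 81 bases before its second annotated start, 27142 bp from the middle of its peak and outside it. Got2 held none. The core is short and common, and 35.3% of all windows of coding genes held it.

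The median GC content of the windows of these genes was 58.3% over 9 windows, that of all windows of coding genes 56.3%, and that of the 39 windows with a knock-down summit 58.7%. The median number of CpG dinucleotides per window was 18, 13 and 20 in the same order. The lowest GC content of the 9 windows, 41%, was at the first Bcat1 start, where the peak lies, and 10.1% of windows had a lower value.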
